A study of Homo sapiens with 6 samples.

Results

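The genes described here are the serpins, the cystatins and the other protease inhibitors of human cells, in 2 breast cell lines before and after decitabine (DAC). Members were chosen by gene symbol: SERPIN followed by a letter from A to I and a number, CST followed by a number, CSTA, CSTB, the 4 TIMP genes, SPINT1, SPINT2, SLPI, PI3 and RECK. The rule found 55 of the 23617 symbols in the MDA-MB-231 table, with 95 transcripts, and 11 of these symbols were also among the 1854 of the HMLER table.

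Polyadenylated RNA was sequenced in 6 libraries: 2 of untreated HMLER, 2 of HMLER given DAC, 1 of untreated MDA-MB-231 and 1 of MDA-MB-231 given DAC. DAC (5-aza-2'-deoxycytidine) is a cytidine analogue that blocks DNA methyltransferases, and it was added daily at 10 µM until collection at 72 h. Untreated cells carried no treatment in the labels, and a vehicle for these cultures was not given in the sources used here. MDA-MB-231 is a line from a human breast cancer, and HMLER was made by transforming human mammary cells in culture, so each stands for a single line. The line label of the untreated MDA-MB-231 library carries a different number, and the library was assigned by its title.

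Serpins trap a serine or cysteine protease by a change of shape: the protease cuts an exposed loop and stays bound to it. Clade A serpins are mostly made by the liver and secreted into plasma, and clade B serpins lack a classical signal peptide and act mainly inside cells. Cystatins plug the active site of cysteine cathepsins and, in some cases, of legumain. TIMPs and the membrane-anchored RECK restrain matrix metalloproteinases, and the Kunitz-type inhibitors encoded by SPINT1 and SPINT2 act on serine proteases of the cell surface.

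Values are FPKM (fragments per kilobase of transcript, scaled to library size), summed over the transcripts of a gene. With 1 library per condition in MDA-MB-231, and 1 merged value per condition over the 2 libraries in HMLER, neither line gave a replicate check, and no test was run. A member was called higher or lower when the DAC/untreated ratio was above 2 or below 0.5 and at least 1 value reached 1 FPKM. The read counts behind the MDA-MB-231 values were recovered from the size of 1 read, and the ratio intervals given below are 95% intervals that cover counting error only. The HMLER table lists only transcripts that were higher after DAC, so a member missing from it has no HMLER value here. In bulk RNA, a higher level in every cell and a high level in a few cells cannot be told apart.

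The MDA-MB-231 libraries held about 43100000 (untreated) and 35300000 (DAC) reads assigned to transcripts. The median ratio of the 11292 symbols with at least 1 FPKM in each library was 0.912, a log2 shift of -0.13 under the deposited scaling and of 0.15 after division by assigned reads. Of the mesenchymal markers, VIM was at 3066 and 1134 FPKM, CAV1 at 381 and 372, CD44 at 212 and 139 and FN1 at 39.8 and 111 FPKM, so VIM was lower and FN1 higher after DAC. Epithelial KRT18 was at 174 and 164 FPKM, KRT8 at 154 and 141 and EPCAM at 7.90 and 9.78 FPKM. CDH1, KRT5 and KRT14 stayed at or below 0.179 FPKM in MDA-MB-231. In HMLER, KRT14 was at 11.6 and 52.2 FPKM, KRT5 at 9.85 and 37.1 and EPCAM at 0.450 and 2.17 FPKM. The mesenchymal marker CD44 was also higher there, at 1.23 and 8.26 FPKM, and no other marker named here was in the HMLER table. Of the luminal markers in MDA-MB-231, ESR1 and PGR were at 0 in the untreated library, ERBB2 was at 11.8 and 12.7 FPKM and GATA3 at 0.795 and 1.71 FPKM. PTPRC, CD3E, PECAM1, VWF and ALB stayed at or below 0.156 FPKM, whereas CD68 stood at 137 and 162 FPKM. The part of these marker changes in any result here was not tested.

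Of the 6 members higher in both lines, 5 had an entry in the RefSeq promoter table, and the 250 bases before the start that the table gives are printed because they span almost the whole range of CpG content. CpG is the dinucleotide whose methylation DAC reduces. The windows come from RefSeq (GRCh38.p14) and were matched to GRCh37, the build called hg19: SPINT1 at chr15:41135996-41136245, SERPINB5 at chr18:61143941-61144190, SERPINI1 at chr3:167453259-167453508, SERPINB7 at chr18:61420041-61420290 and SERPINB2 at chr18:61554689-61554938, all on the plus strand. These starts are not always the outermost ones of the GENCODE genes given below: the SERPINB2 and SERPINI1 windows lie inside the gene, at a later start, and the SERPINB7 and SPINT1 windows overlap the gene's first bases. The windows are written 5′ to 3′ with each CG in capitals.
SPINT1 promoter window: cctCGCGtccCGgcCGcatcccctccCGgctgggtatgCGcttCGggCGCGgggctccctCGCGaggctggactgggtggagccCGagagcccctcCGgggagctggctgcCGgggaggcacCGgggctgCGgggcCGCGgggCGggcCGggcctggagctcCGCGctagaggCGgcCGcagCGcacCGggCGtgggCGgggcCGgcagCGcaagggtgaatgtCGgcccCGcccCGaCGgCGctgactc
SERPINB5 promoter window: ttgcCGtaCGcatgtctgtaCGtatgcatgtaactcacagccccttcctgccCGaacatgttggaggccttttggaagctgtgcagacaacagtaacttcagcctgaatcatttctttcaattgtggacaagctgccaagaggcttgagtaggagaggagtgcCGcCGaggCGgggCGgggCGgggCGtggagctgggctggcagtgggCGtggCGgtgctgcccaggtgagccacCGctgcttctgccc
SERPINI1 promoter window: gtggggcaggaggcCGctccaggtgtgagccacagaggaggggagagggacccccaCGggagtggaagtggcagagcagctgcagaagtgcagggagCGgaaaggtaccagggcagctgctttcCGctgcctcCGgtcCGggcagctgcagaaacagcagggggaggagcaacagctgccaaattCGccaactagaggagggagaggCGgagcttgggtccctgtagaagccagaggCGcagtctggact
SERPINB7 promoter window: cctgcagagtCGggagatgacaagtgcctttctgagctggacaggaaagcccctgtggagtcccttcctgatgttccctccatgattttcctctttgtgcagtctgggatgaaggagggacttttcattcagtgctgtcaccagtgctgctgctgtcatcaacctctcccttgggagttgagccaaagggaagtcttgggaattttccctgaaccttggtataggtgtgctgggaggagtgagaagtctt
SERPINB2 promoter window: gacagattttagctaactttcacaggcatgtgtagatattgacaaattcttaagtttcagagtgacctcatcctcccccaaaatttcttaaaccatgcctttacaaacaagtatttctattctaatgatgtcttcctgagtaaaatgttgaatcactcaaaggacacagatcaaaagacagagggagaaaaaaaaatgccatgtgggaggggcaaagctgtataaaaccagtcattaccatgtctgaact

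The SPINT1 window held 35 CG dinucleotides, a number that 5.64% of the 27305 promoters in the table reached or exceeded. SERPINB5 had 13 and SERPINI1 had 9, on either side of the median of 11 over all promoters. The SERPINB7 window held 1, and the SERPINB2 window held 0, as did 6.39% of all promoters. CG-dense and CG-free windows thus both occurred among the members higher in both lines. Methylation at these windows was not analysed here. A check over the whole set is void, since only 36 of the 55 members (65.5%) had an entry, under the minimum of 80% set for it. CST6 is a member without an entry.

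In MDA-MB-231, 22 of the 55 members reached 1 FPKM in at least 1 library. Of these, 9 were higher after DAC (40.9%, beside 10.8% of the 12525 symbols past the same filter), 2 were lower (9.09%, beside 4.82%) and 11 stayed within 2-fold. The higher members were SPINT1, SERPINB5, CST6, SERPINB2, SERPINB7, SERPINF1, SERPINI1, TIMP1 and TIMP4. RECK was among the lower. The median log2 change of the 22 (pseudocount of 1 FPKM) was 0.39, against -0.08 over all symbols tested. Of the 22, 6 were under 1 FPKM untreated and passed the filter only through the DAC library. That raises the median of the 22, so nothing is read from it.

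Part of the share of higher members also followed from the filter. For 6 of the 9 higher members the untreated value was under 1 FPKM, so that they passed only through the DAC library and had to differ. Among the 16 members at 1 FPKM or more in the untreated library, 3 were higher (18.8%, beside 4.29% of 11516 symbols) and 2 were lower (12.5%, beside 5.24%). Among the 39 members under 1 FPKM in the untreated library, 6 were higher (15.4%, beside 7.07% of 12101 symbols). These counts are of few genes, and they describe this pair of libraries.

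**Figure D1:**
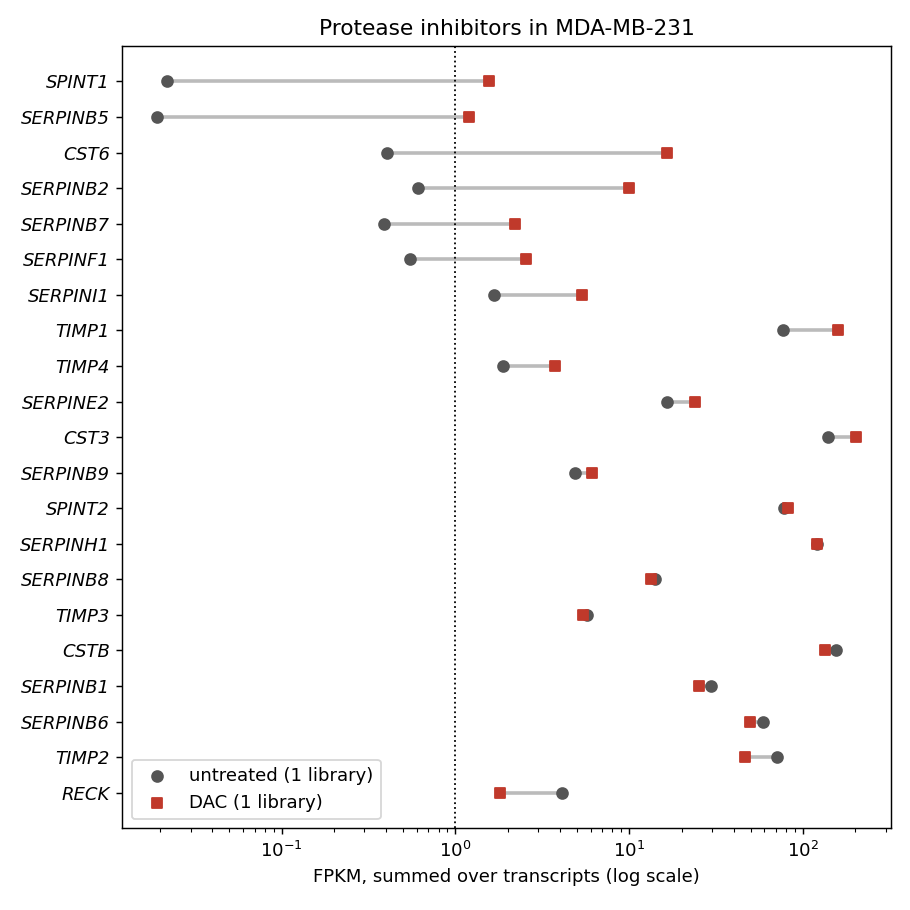
Summed FPKM (log axis) of 21 of the 22 members at 1 FPKM or more in MDA-MB-231, untreated (grey circles) and DAC (red squares), 1 library each, ordered by ratio; the dotted line marks 1 FPKM. From SPINT1 down to SERPINF1 the 6 topmost members cross the line from below, and RECK at the bottom moves from 4.09 to 1.81 FPKM.

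Clade B serpins gave the most members in both tables: 7 of 13 reached 1 FPKM in MDA-MB-231, of which 3 were higher, and 6 were in the HMLER table. All 3 higher members were under 1 FPKM untreated and passed the filter only through the DAC library. Over all symbols, 10.8% of those past the filter were higher, and 7.85% were in the HMLER table. SERPINB2 is a clade B inhibitor of urokinase (chr18:61538926-61571122, plus strand). In MDA-MB-231 it stood at 0.606 FPKM untreated (44 reads) and 9.94 FPKM after DAC (720 reads), a ratio of 16.4 with a counting interval of 12.1 to 22.9. It was the only called member whose deposited bounds did not overlap: for its main transcript these ran from 0 to 1.76 FPKM untreated and from 3.29 to 16.1 FPKM after DAC. In HMLER, SERPINB2 was at 0.154 and 7.70 FPKM, a ratio of 50.1. The HMLER value is of NM_002575, the main transcript in MDA-MB-231, and the tables were normalized separately. Of the SERPINB2 exon bases, 20.0% overlap the protein-coding gene ENSG00000289724 on the same strand, which had no MDA-MB-231 value.

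SERPINB5 encodes maspin, a clade B serpin of mammary epithelium studied as a tumour suppressor (chr18:61144191-61172318, plus strand). MDA-MB-231 had 0.0193 FPKM untreated, which is 2 reads, and 1.20 FPKM after DAC, which is 123 reads. The ratio of 61.9 therefore had a wide counting interval, from 16.8 to 516.6. HMLER cells held 35.4 FPKM without DAC and 91.6 FPKM with it, a ratio of 2.58. The gene was close to silent in untreated MDA-MB-231, and its untreated FPKM was the highest listed for the 11 members in the HMLER table. As that table leaves out some transcripts of other members, this does not rank the levels of the genes. After DAC its MDA-MB-231 level was still far below the untreated HMLER level, on separately normalized scales.

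SERPINB7 encodes megsin (chr18:61420169-61472610, plus strand). Its sum went from 0.389 FPKM (29 reads) to 2.21 FPKM (174 reads) in MDA-MB-231, a ratio of 5.67 (counting interval 4.06 to 9.28), and from 0.139 to 15.1 FPKM in HMLER, a ratio of 108.4, the highest of any member there. The transcripts behind the sum differed between libraries. In untreated MDA-MB-231, NM_001261830 made up 99.8% of the FPKM, and after DAC NM_001040147 made up 56.3%, NM_003784 34.5% and NM_001261830 9.24%. NM_001261830 itself was lower after DAC (0.389 and 0.204 FPKM), whereas in HMLER the same transcript went from 0.0734 to 9.07 FPKM. NM_003784 was higher in both lines, at 0 and 0.760 FPKM in MDA-MB-231 and at 0.0656 FPKM untreated in HMLER with a ratio of 91.6. The split of few reads between overlapping transcripts is an estimate by Cuffdiff, and the bounds of each transcript reached 0.

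The other clade B members at 1 FPKM or more stayed within 2-fold in MDA-MB-231. SERPINB6, an intracellular inhibitor of serine proteases, was at 58.6 and 49.5 FPKM (ratio 0.846), and SERPINB9, the inhibitor of granzyme B, was at 4.90 and 6.08 FPKM (1.24). SERPINB1, which inhibits neutrophil elastase, was at 29.7 and 25.2 FPKM (0.851), and SERPINB8, known as an inhibitor of furin, was at 14.1 and 13.3 FPKM (0.941). Abundant clade B members thus moved little in this line.

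Of these, 3 were in the HMLER table. SERPINB9 was at 0.662 and 1.89 FPKM there (ratio 2.85). For SERPINB1 the listed transcript was the non-coding NR_073111, at 0.281 and 1.57 FPKM (5.58); in MDA-MB-231 that transcript made up 4.41% of the untreated sum and stood at 1.31 and 1.68 FPKM. For SERPINB8 it was NM_001031848, at 1.64 and 3.90 FPKM in HMLER (2.38) and at 1.09 and 1.82 FPKM in MDA-MB-231. The HMLER values of both genes therefore concern minor transcripts in MDA-MB-231, where the main transcripts carried the sum.

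SERPINB2, SERPINB5, SERPINB7 and SERPINB8 lie with 6 other clade B genes in a cluster of 542.8 kb on chromosome 18. In chromosomal order the genes are SERPINB5, SERPINB12, SERPINB13, SERPINB4, SERPINB11, SERPINB3, SERPINB7, SERPINB2, SERPINB10 and SERPINB8. The 3 genes higher in both lines were not all neighbours: SERPINB7 and SERPINB2 adjoin, and SERPINB5 is at the far end. The 6 others had 0 reads in both MDA-MB-231 libraries, except SERPINB11 with 1 read after DAC, and none was in the HMLER table. SERPINB3 and SERPINB4 share sequence (24.2% of the 50-base windows of SERPINB3 also occur in SERPINB4), so a read could fall to either, and both were at 0. A count of 0 allows up to 3 reads.

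**Figure D2:**
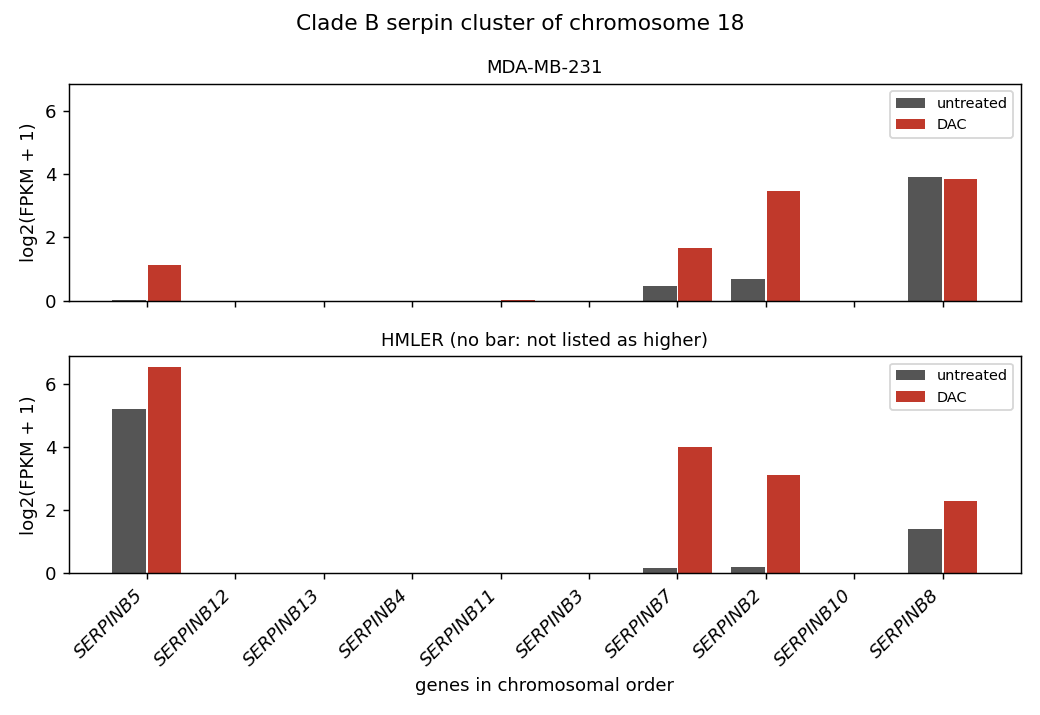
log2(FPKM + 1) of the 10 clade B serpins of the chromosome 18 cluster, in chromosomal order and not to distance, untreated (grey) and DAC (red), in MDA-MB-231 (top, 1 library per condition) and HMLER (bottom, 1 merged value per condition). SERPINB5, SERPINB7 and SERPINB2 have the taller DAC bar in both lines, and SERPINB8 in HMLER only; a gene with no HMLER bar was not in that table.

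Of the clade E serpins, SERPINE2, an inhibitor of thrombin and urokinase, was at 16.5 FPKM (1445 reads) and 23.9 FPKM (2082 reads), a ratio of 1.45 with a counting interval of 1.35 to 1.55. SERPINE3 had 2 and 8 reads. Neither was in the HMLER table.

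The plasminogen activation genes are given beside these inhibitors of urokinase. Of 9 genes listed for this system, 7 reached 1 FPKM in MDA-MB-231. Of the 7, 2 were higher and 0 were lower, beside 10.8% and 4.82% of all symbols past the same filter. PLAT, the tissue-type activator, was at 4.61 and 13.0 FPKM (2.83) and THBD, the thrombin cofactor thrombomodulin, at 1.41 and 3.04 FPKM (2.16). PLAU, which encodes urokinase, was at 83.6 and 51.2 FPKM (0.612), and its receptor PLAUR at 98.8 and 107.5 FPKM (1.09). F3, also of this list, was at 119.0 and 84.1 FPKM (0.707). In HMLER, PLAU was at 41.1 and 97.4 FPKM, PLAT at 21.8 and 128.7, PLAUR at 26.2 and 52.5 and F3 at 15.3 and 62.1 FPKM.

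Among the serpins of clades C, D, F, G, H and I, 3 of 8 reached 1 FPKM. SERPINI1 encodes neuroserpin, an inhibitor of tissue-type plasminogen activator (chr3:167453031-167543357, plus strand). It was at 1.67 FPKM (105 reads) and 5.32 FPKM (336 reads), a ratio of 3.18 (counting interval 2.58 to 4.05), and at 0.307 and 2.49 FPKM in HMLER, a ratio of 8.11. It was the only member higher in both lines that was already at 1 FPKM or more in untreated MDA-MB-231. SERPINF1, which encodes the secreted, non-inhibitory pigment epithelium-derived factor, was at 0.547 and 2.56 FPKM (31 and 144 reads; ratio 4.67, counting interval 3.15 to 7.13) and was not in the HMLER table. SERPINH1, the collagen chaperone of the endoplasmic reticulum, was at 121.0 and 119.9 FPKM, and its counting interval of 0.965 to 1.02 held 1.

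The liver serpins stayed near 0. None of the 10 clade A genes reached 1 FPKM, and 7 had 0 reads in both libraries. SERPINA1, which encodes alpha-1-antitrypsin, had 0 reads untreated and 18 after DAC (0.142 FPKM), with a counting interval from 4.42 upward. Among the remaining serpins, SERPIND1 (heparin cofactor) had the highest level under the filter, 0.726 FPKM after DAC, with 11 and 62 reads.

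CST6 was the clearest member among the cystatins. It encodes cystatin E/M, a secreted inhibitor of legumain and of cathepsins L and V that has been studied for silencing by methylation in breast cancer (chr11:65779479-65780976, plus strand). In MDA-MB-231 it stood at 0.405 FPKM (7 reads) and 16.5 FPKM (283 reads), a ratio of 40.7 with a counting interval of 19.5 to 102.1. The deposited bounds, 0 to 1.24 and 0.349 to 32.6 FPKM, overlapped. In HMLER it was at 3.21 and 84.5 FPKM, a ratio of 26.4. The latter was the second highest DAC value listed for a member there, after SERPINB5, with some transcripts of other members not listed.

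The widely expressed cystatins changed less. CST3, which encodes cystatin C, the most widespread secreted cystatin, was at 138.4 and 200.6 FPKM (1.45, counting interval 1.39 to 1.52), and CSTB, which encodes the cytosolic stefin B, at 154.2 and 133.2 FPKM (0.864, counting interval 0.828 to 0.900). CSTA had 0 reads in both libraries. CST1, a salivary cystatin, was in the HMLER table at 0.256 and 1.80 FPKM (7.02), and had 0 and 10 reads in MDA-MB-231 (counting interval from 2.25 upward). Its reads are uncertain, since 23.4% of its 50-base windows also occur in CST4. The other 7 secreted cystatins had at most 5 reads in either library.

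The cysteine proteases that cystatins inhibit are given beside them. Of 12 genes for cathepsins and legumain, 8 reached 1 FPKM. Of the 8, 3 were higher and 0 were lower, beside 10.8% and 4.82% of all symbols past the same filter. LGMN, the legumain gene, was at 23.7 and 49.8 FPKM (2.10), CTSL2, the gene of cathepsin V, at 1.15 and 6.53 FPKM (5.70), and CTSW at 0.279 and 4.54 FPKM (16.3). CTSL2, CTSW and CTSH were also in the HMLER table. CTSW passed the filter only through the DAC library. The other 5 stayed within 2-fold: CTSL1, the gene of cathepsin L, was at 39.6 and 32.9 FPKM (0.831), CTSB at 0.714, CTSC at 0.734 and CTSZ at 0.709 of the untreated level, and CTSH at a ratio of 1.98.

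TIMPs and RECK were all at 1 FPKM or more in MDA-MB-231, and they went in different directions. TIMP1 (chrX:47441807-47446188, plus strand) was at 76.6 FPKM (2324 reads) and 158.3 FPKM (4776 reads), a ratio of 2.07 with a counting interval of 1.97 to 2.17. TIMP4 was at 1.87 and 3.77 FPKM (114 and 228 reads), a ratio of 2.01 with an interval of 1.60 to 2.54. Both were close to the threshold, and their intervals included ratios below it. TIMP4 was within 2-fold with either pseudocount tried, and 14.2% of its exon bases overlap SYN2 on the opposite strand.

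The other members of the group were not higher. TIMP2 was at 70.7 and 46.1 FPKM (0.652, counting interval 0.632 to 0.672) and TIMP3 at 5.73 and 5.39 FPKM (0.940, counting interval 0.868 to 1.02). RECK, the membrane-anchored regulator of metalloproteinases (chr9:36036910-36124452, plus strand), was at 4.09 FPKM (733 reads) and 1.81 FPKM (322 reads), a ratio of 0.442 with a counting interval of 0.386 to 0.504. After division by assigned reads its ratio was 0.537, and it was no longer called lower. No TIMP was in the HMLER table, and neither was RECK.

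Matrix metalloproteinases are the targets of this group. Of 24 genes, 8 reached 1 FPKM, 5 were higher and 2 were lower, beside 10.8% and 4.82% of all symbols past the same filter. All of the higher except MMP1 were under 1 FPKM untreated, and passed the filter only through the DAC library. MMP1, an interstitial collagenase, was at 16.2 and 278.5 FPKM (17.2) and MMP3, a stromelysin, at 0.318 and 16.4 FPKM (51.6), and MMP11, MMP15 and MMP19 were higher by ratios of 3.41 to 5.97. MMP14, a membrane-type enzyme, was at 87.7 and 42.0 FPKM (0.479) and MMP16 at 2.82 and 0.982 FPKM (0.348). The FPKM summed over the list was 112.1 untreated and 348.1 after DAC, and MMP1 made up most of the latter. In HMLER, MMP1 was at 8.06 and 159.3 FPKM, MMP9 at 0.134 and 10.8 and MMP13 at 0.0297 and 1.06 FPKM. MMP9 and MMP13 stayed under 1 FPKM in MDA-MB-231.

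SPINT1 had the highest ratio among the 22 members at 1 FPKM in MDA-MB-231, on 2 untreated reads and with a counting interval that overlaps those of SERPINB5 and CST6. It encodes hepatocyte growth factor activator inhibitor, which acts on matriptase and on the activator of hepatocyte growth factor (chr15:41136216-41150405, plus strand). It was at 0.0220 FPKM (2 reads) and 1.56 FPKM (145 reads), a ratio of 70.9 with a counting interval of 19.8 to 608.0. In HMLER it was at 4.26 and 9.06 FPKM, a ratio of 2.13. The tables counted different transcripts: NM_003710 and NM_001032367 carried the MDA-MB-231 reads, and NM_181642, the transcript in the HMLER table, was at or next to 0 in MDA-MB-231.

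SPINT2, the related Kunitz inhibitor, was abundant in MDA-MB-231 at 77.8 and 82.0 FPKM (1.05, counting interval 1.01 to 1.09), and at 15.7 and 32.4 FPKM in HMLER (2.06). Its HMLER ratio was the lowest of the 11 members in that table. The 22 transmembrane serine proteases and the 15 kallikreins had no gene at 1 FPKM in MDA-MB-231. ST14, of the former, had 7 and 52 reads there and was at 0.463 and 1.58 FPKM in HMLER. KLK6, KLK10 and KLK14 were also in the HMLER table. SLPI had 2 reads in each library and PI3, which encodes elafin, 0 and 1.

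**Figure D3:**
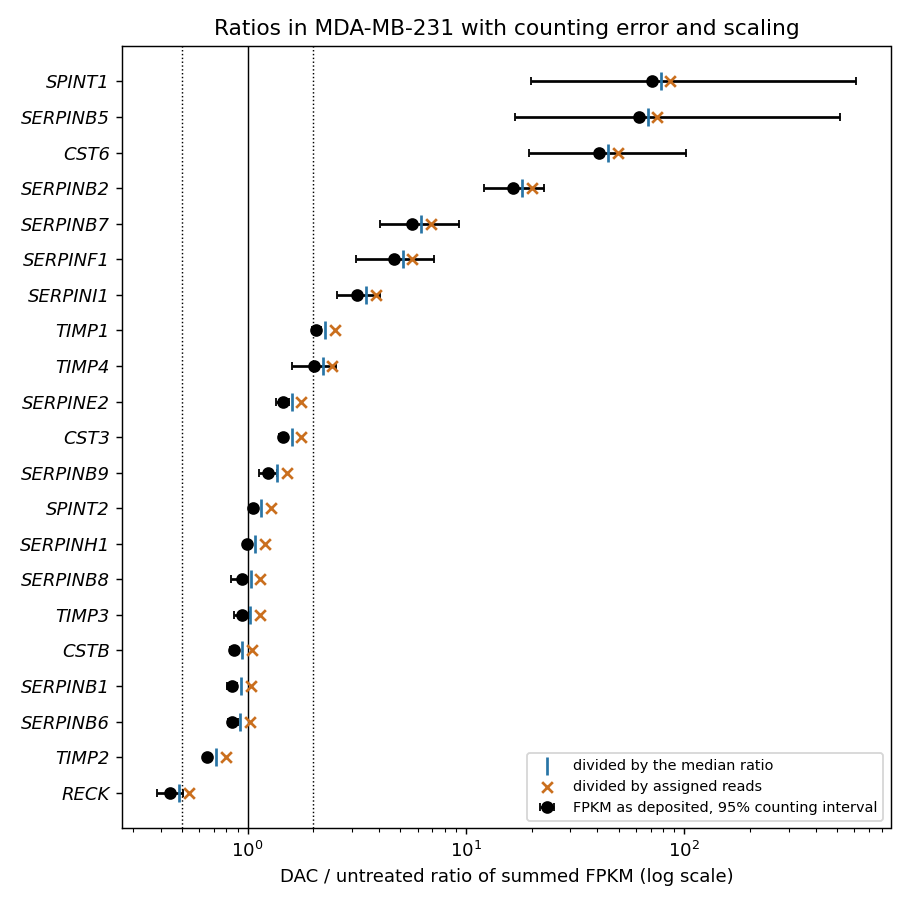
DAC/untreated ratio of summed FPKM (log axis) of 21 of the 22 members in MDA-MB-231, with 95% counting intervals (bars) and the ratio under other library scalings (blue ticks, orange crosses); the solid line marks 1 and the dotted lines 0.5 and 2. The intervals of SPINT1 and SERPINB5, with 2 untreated reads each, are the widest, and the cross of RECK (0.537) is the only marker of a called member shown that passes a dotted line.

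In HMLER, 11 members with 12 transcripts were listed as higher after DAC. That is 20.0% of the 55 members, beside 7.85% of all symbols of the MDA-MB-231 table, and 10 of the 22 at 1 FPKM in MDA-MB-231 (45.5%, beside 10.9%). Among these 10, CST6, SERPINB2, SERPINB5, SERPINB7 and SPINT1 passed the MDA-MB-231 filter only through the DAC library. Nothing is read from that second share. In order of ratio the 11 listed members were SERPINB7, SERPINB2, CST6, SERPINI1, CST1, SERPINB1, SERPINB9, SERPINB5, SERPINB8, SPINT1 and SPINT2. The median ratio was 5.58, against 3.62 over all listed symbols. The spread between the 2 libraries of a condition was not analysed here, so it is not known which neighbours in this order differ beyond it.

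Past the threshold in both lines were 6 members, CST6, SERPINB2, SERPINB5, SERPINB7, SERPINI1 and SPINT1 (27.3% of the 22, beside 3.66% of symbols). All of them except SERPINI1 were under 1 FPKM in untreated MDA-MB-231 and passed the filter only through the DAC library, so nothing is read from this share. Of these, 4 passed it with the same transcript in both tables, and for SERPINB7 and SPINT1 no single transcript passed it in both. Untreated SERPINB5, SPINT1 and CST6 were lower in MDA-MB-231 than in HMLER. For SERPINB2, SERPINB7 and SERPINI1 the HMLER table lists only some of the transcripts summed in MDA-MB-231, so their untreated levels are not compared. As the tables were normalized separately and no replicate spread was available, these levels are set side by side without a test.

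**Figure D4:**
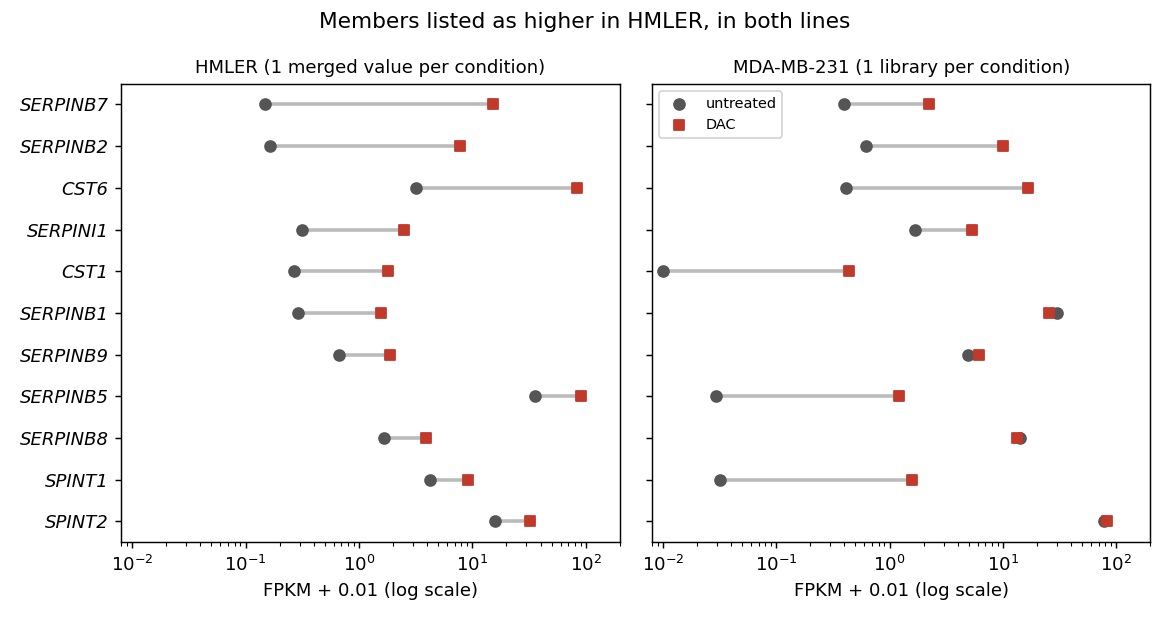
FPKM + 0.01 (log axis) of the 11 members in the HMLER table, in HMLER (left, 1 merged value per condition) and MDA-MB-231 (right, 1 library per condition), untreated (grey circles) and DAC (red squares), ordered by the HMLER ratio. SERPINB1, SERPINB8, SERPINB9 and SPINT2 are nearly level in MDA-MB-231 (ratios of 0.851 to 1.24), and the 7 others are higher in both panels.

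The remaining inhibitor families outside the rule gave a smaller comparison. Of 39 genes, 3 reached 1 FPKM in MDA-MB-231. Of the 3, 2 were higher and 1 was lower, beside 10.8% and 4.82% of all symbols past the same filter. TFPI2, a Kunitz inhibitor of the matrix, was at 9.58 and 57.4 FPKM (5.99) and WFDC2 at 0.259 and 3.78 FPKM (14.6). WFDC2 passed the filter only through the DAC library. Both genes were also in the HMLER table, as were SPINK1, WFDC3 and WFDC5, which stayed under 1 FPKM in MDA-MB-231. TFPI, the inhibitor of tissue factor, was at 67.0 and 19.8 FPKM (0.296).

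In all, 33 members were under 1 FPKM in both MDA-MB-231 libraries. Of these, 17 had 0 in both, 8 were above 0 only after DAC, 1 (SERPINC1, 2 reads) only without it, and 7 in both. Of the 8, all except SERPINA1 (18 reads) had at most 10 reads after DAC. The same counts were not taken over all symbols, so nothing is read from the 8 beside the 1. Among the 11 members at 10 FPKM or more in the untreated library, 9 stayed within 2-fold, and TIMP1 was higher.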

How the data were processed

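RNA-seq of HMLER and MDA-MB-231 with and without DAC was analysed from 2 deposited tables. The authors aligned reads to hg19 with TopHat2 and used Cuffdiff, run through Galaxy, to compute FPKM for RefSeq transcripts. Tool versions and the library scaling were not given in the sources used here. Each library was made from pooled RNA extractions. The FPKM deposited for HMLER are 1 merged value per condition, and the table holds only transcripts higher after DAC. Columns with the authors' own fold changes, p-values and q-values were not used.

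FPKM were summed per symbol, and ratios were taken without a pseudocount; log2 changes used a pseudocount of 1 FPKM, which understates the change of low genes. Reads were recovered in MDA-MB-231 from FPKM and transcript length minus 204 bases: 100% of 1620 (untreated) and 1937 (DAC) low values lay within 0.1 of a whole read. Reads of genes with several transcripts rest on Cuffdiff's split. Counting intervals are exact 95% binomial intervals, and PCR duplicates were not removed here. The deposited bounds are those of the largest transcript.

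Members and lists were chosen with earlier results of these data known. Named are all members at 1 FPKM in MDA-MB-231 or in the HMLER table. From the protease lists, genes past 2-fold are named, at most 5 per list. MMP14, MMP16, PLAU, PLAUR and some members at few reads were added after their values were seen. CTSL1, CTSB, CTSC, CTSZ, CTSH, ST14, KLK6, KLK10 and KLK14 were named outside that rule as well. So were F3, MMP9, MMP13, SPINK1, WFDC3 and WFDC5. The values of 1 member are not reported here. Positions are GENCODE genes lifted to GRCh37. Calls were tested on simulated data, at untreated levels above those of most called members. That checks the code and not the calls given here. Computations used pandas 2.3.3, numpy 2.4.6 and scipy 1.17.1 under Python 3.11.15, with plots by matplotlib 3.10.9. Alternatives were other filters, pseudocounts, scalings and transcript choices.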

Additional observations from a re-analysis of the deposited data

Results flagged for a closer look

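For SERPINB1 and SERPINB8 the summed ratio in MDA-MB-231 was below 1, whereas the ratio of the listed transcript in HMLER was above 1. SERPINB1 had a DAC/untreated ratio of 0.851 in MDA-MB-231 and 5.58 in HMLER, and SERPINB8 had 0.941 and 2.38. The difference between the lines was not tested, since there was 1 value per condition in each. The HMLER values are of NR_073111 and NM_001031848 alone, whose MDA-MB-231 ratios were 1.28 and 1.67. Taken by the same transcript, both genes therefore had ratios above 1 in both lines. Divided by assigned reads, the MDA-MB-231 ratios of the sums were 1.03 and 1.14, so that the opposite direction was lost.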

How the results depend on the processing

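No paired analysis was possible because values of single HMLER libraries were not analysed here (the table merges them) and MDA-MB-231 was sequenced once per condition; leaving out a replicate was likewise not possible. The main counts in MDA-MB-231 were 9 members higher and 2 lower, with 11 in the HMLER table and 6 in both lines. The count of higher members was 23 with no filter, 3 with 1 FPKM required in both conditions or in the untreated condition, 4 with 5 FPKM, and 1 (SERPINB2) where bounds must not overlap. The count of lower members was 1 (RECK no longer called) with 5 FPKM, with a pseudocount of 1 FPKM or divided by assigned reads, and 0 where bounds must not overlap. In the HMLER table it was 5 with 1 FPKM in both conditions and 6 with 5 FPKM. For both lines it was 0 with 1 FPKM in both conditions, 2 with 5 FPKM, 1 where bounds must not overlap (SERPINB2) and 1 with 1 FPKM in untreated MDA-MB-231 (SERPINI1). The filter removes most of these members through their low untreated values. Division by the median ratio or by assigned reads left the 9 higher members the same genes. Divided by assigned reads, CSTB, SERPINB1, SERPINB6, SERPINB8, SERPINH1 and TIMP3 went from just below to just above a ratio of 1. Division by assigned reads, the filter on the untreated condition and the same-transcript count were chosen after the data were seen.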
